A study of Mus musculus with 37 samples.

Results

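Gja1, Gjb6, Gjb2 and Panx1 encode the channel proteins connexin 43, connexin 30, connexin 26 and pannexin 1, and their transcripts were followed in astrocytes taken from the mouse hippocampus months after a controlled cortical impact (CCI). The genes were chosen by name, and all 4 were found among the 21975 gene identifiers of the count and TPM tables. The mice were wild type and male, of a strain that the sample labels call CD31 and the methods CD1. Injured mice received a 2.5 mm deep impact on one hemisphere at 60 to 90 days of age, sham mice received the craniectomy alone, and all mice carried EEG electrodes. Injured mice with at least 2 epileptic episodes were designated PTE+ (post-traumatic epilepsy) and those without were designated PTE-. The astrocytes were isolated 4 months after injury with ACSA-2 beads, which capture cells by a surface antigen of astrocytes, from the hippocampus ipsilateral or contralateral to the impact. There were 37 libraries from 20 mice: 5 PTE+, 10 PTE- and 5 sham libraries on the contralateral side, and 4 PTE+, 8 PTE- and 5 sham libraries on the ipsilateral side. Both hemispheres were sequenced in 17 mice, and the mouse name in the labels pairs them. Each mouse was a separate animal, so the spread between libraries of a group includes biological variation.

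Connexins assemble into a hemichannel, and hemichannels of neighbouring cells dock into a gap junction that passes ions and small metabolites. In the hippocampus, astrocytes are coupled into a network mainly through connexin 43 and connexin 30, which helps to spread potassium taken up near active neurons and to share glucose metabolites. Connexin 26 is a less abundant relative, found in meningeal cells and in some astrocytes. Pannexin 1 is not a connexin and does not usually form junctions between cells, but opens as a channel to the outside and releases ATP.

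In the GENCODE vM21 annotation of GRCm38, the build that the files use under the name mm10, Gja1 (ENSMUSG00000050953) lies on the plus strand at chr10:56377330-56402513. Gjb6 (ENSMUSG00000040055) lies on the minus strand at chr14:57123303-57133611. Its neighbour Gjb2 (ENSMUSG00000046352) lies on the same strand at chr14:57098600-57104702, and the 2 genes are separated by 18600 bases. Panx1 (ENSMUSG00000031934) lies on the minus strand at chr9:15002128-15045478. All 4 genes are protein coding, and no other annotated gene overlaps any of them, so that their reads are not shared with an antisense or overlapping gene.

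The 250 bases before the RefSeq start are shown for the abundant connexins and for Gjb2, since Gjb6 and Gjb2 are neighbours in the genome but were measured at very different levels. They are written 5′ to 3′ on the strand of the gene (GRCm38.p6), at chr10:56377050-56377299 for Gja1, chr14:57133612-57133861 for Gjb6 and chr14:57104703-57104952 for Gjb2. Capitals mark matches to an AP-1 motif (TGANTCA) or a GC box (GGGCGG), searched on both strands. 
Gja1: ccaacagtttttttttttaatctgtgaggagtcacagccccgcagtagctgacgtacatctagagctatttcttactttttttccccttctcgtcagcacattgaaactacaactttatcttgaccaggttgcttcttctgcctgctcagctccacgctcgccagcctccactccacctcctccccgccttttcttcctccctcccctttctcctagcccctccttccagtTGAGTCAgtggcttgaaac
Gjb6: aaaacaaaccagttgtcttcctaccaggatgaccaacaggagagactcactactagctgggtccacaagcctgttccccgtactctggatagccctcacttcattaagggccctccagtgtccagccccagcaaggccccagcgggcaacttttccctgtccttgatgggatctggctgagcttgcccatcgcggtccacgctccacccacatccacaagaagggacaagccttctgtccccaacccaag
Gjb2: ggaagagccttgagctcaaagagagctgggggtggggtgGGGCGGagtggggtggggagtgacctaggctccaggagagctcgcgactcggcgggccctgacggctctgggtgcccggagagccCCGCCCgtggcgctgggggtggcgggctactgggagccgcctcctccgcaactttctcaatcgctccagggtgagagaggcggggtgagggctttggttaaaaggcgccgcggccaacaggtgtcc
The AP-1 motif matched once in Gja1, 19 bases before the start, and was held by 6.75% of the windows of the same length before all 32841 promoters. The GC box matched at 2 places in Gjb2, 211 and 126 bases before the start, and was held by 32.7% of all windows. Neither set of letters was present in the windows of Gjb6 and Panx1. A match of letters describes the sequence and is not a measured binding site.

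The libraries held between 25371887 and 59846479 counts, with 9020 to 15545 genes detected. The ipsilateral library of PTE- mouse a8_11 had the fewest detected genes (9020), and the contralateral library of PTE- mouse a9_20 had the lowest total. The label of the cell type was checked on 12 astrocyte markers, whose summed level was 15663 TPM in the median library (5806 to 21403), with the lowest value in the ipsilateral library of mouse a8_11. Markers of other cells were also present, with medians of 256 TPM for neurons (10 genes), 643 for the oligodendrocyte lineage (10 genes), 378 for microglia and macrophages (10 genes), 883 for endothelial cells (8 genes), 501 for mural cells and fibroblasts (11 genes), 951 for ependyma and choroid plexus (8 genes) and 2414 for blood (8 genes). The myelin genes Mog, Cldn11 and Ermn, the macrophage genes Mrc1 and Cd163, the choroid gene Ttr, and Alas2, Cd3e, Cd3d and Ptprc of the blood list had 3 or fewer counts in most libraries. Bulk libraries do not distinguish fewer cells of a type from less RNA per cell.

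Gja1 and Gjb6 were among the most abundant transcripts of the astrocytes. On the TPM scale, which accounts for transcript length and allows genes to be compared, Gja1 had a median of 1808 TPM over 37 libraries (583 to 3324) and Gjb6 a median of 874 TPM (257 to 1510). The median library placed Gja1 at the 99.8th percentile of all genes and Gjb6 at the 99.5th. Gjb2 had a median of 9.43 TPM (0 to 61.9) and Panx1 a median of 7.44 TPM (0 to 93.1). Both abundant connexins were above 3 counts in 37 of 37 libraries, Gjb2 in 36 and Panx1 in 30.

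Of the summed TPM of 20 connexin genes, Gja1 accounted for 64.1% in the median library (45.5% to 82.0%) and Gjb6 for 32.7% (17.5% to 52.0%). Together they held 96.5% (90.3% to 99.98%), and Gjb2 held 0.362%. Among the other connexins, those of vessels were the next most abundant, with medians of 29.3 TPM for Gjc1 (connexin 45) and 23.3 TPM for Gja4 (connexin 37). Of the oligodendrocyte connexins, Gjc3 (connexin 29) had a median of 6.86 TPM, while Gjb1 (connexin 32) exceeded 3 counts in 13 of 37 libraries. The remaining pannexins were low, with a median of 0.60 TPM for Panx2 and 0 TPM for Panx3.

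**Figure D1:**
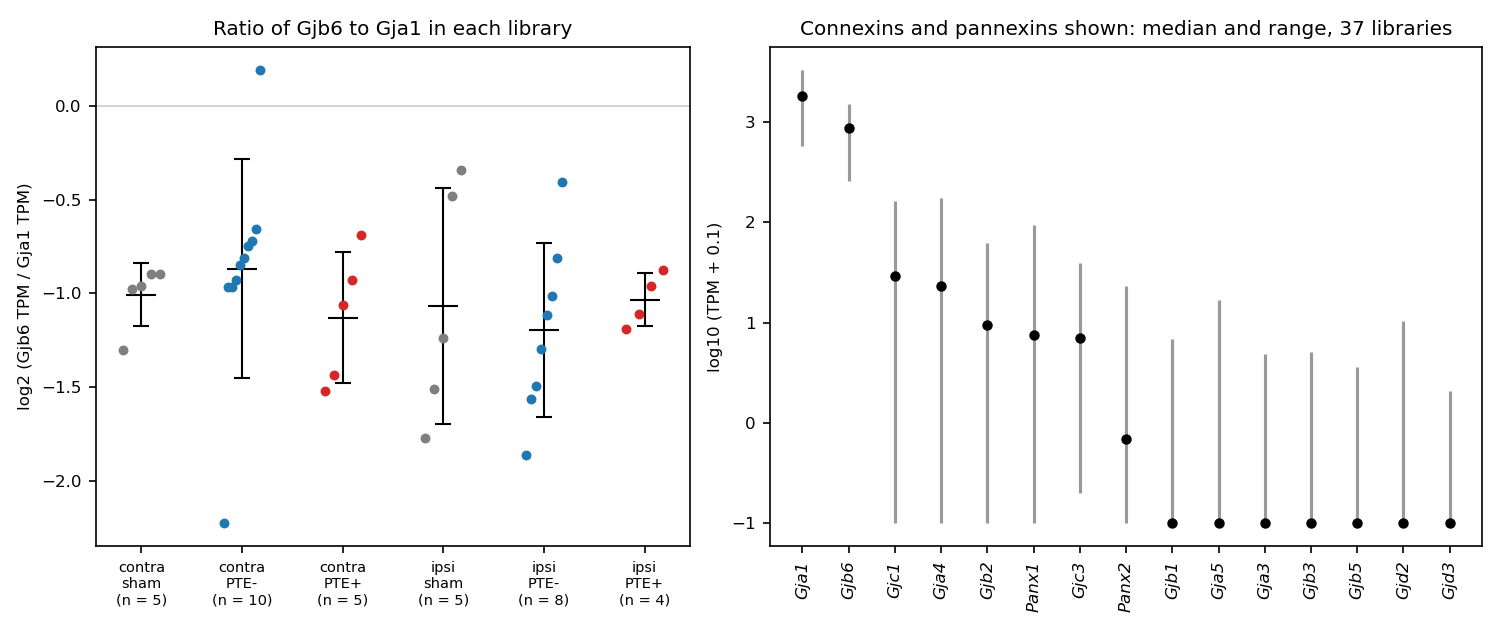
The left plot gives the log2 ratio of Gjb6 to Gja1 TPM in each library (points) with the group mean and SD (bars), and the right plot gives the median (points) and range (lines) of log10(TPM + 0.1) for the connexins and pannexins shown, each above 1 TPM in at least 1 of 37 libraries. Gja1 and Gjb6 stand far above the other genes, with medians of 1808 and 874 TPM.

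The first question was whether the astrocytes of PTE+ mice differed from those of PTE- and sham mice within each hemisphere. Levels between groups are given as CPM, the counts of a gene relative to the total of its library, after TMM scaling, and were compared by edgeR's quasi-likelihood test on the counts, with p-values adjusted over all genes tested, and by an exact two-sided permutation test of log2(CPM + 1). None of the 4 genes passed the adjusted edgeR test in any of 11 comparisons (44 tests). Of the 44 tests, 3 had an unadjusted p-value below 0.05, all of them for Gjb6. These 3 tests share libraries, contralateral ones of PTE- mice being in each, so they are not 3 separate results. Over all genes, 1 gene passed the adjusted test for contralateral PTE+ versus PTE- mice (0.00683% of 14642) and 0 in each of the other 10 comparisons. The share of all genes with an unadjusted p-value below 0.05 was 2.21% for PTE+ versus PTE-, 1.23% for PTE+ versus sham and 1.54% for PTE- versus sham on the contralateral side, and 1.75%, 1.66% and 1.58% on the ipsilateral side. Between the hemispheres it was 0.763% in PTE+, 2.0% in PTE- and 0.331% in sham mice, and for the difference between groups in this side difference 1.16% (PTE+ versus PTE-) and 0.814% (injured versus sham). DESeq2 and limma voom also gave 0 adjusted calls for the 4 genes.

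Gja1, the main gap junction protein of astrocytes, did not differ by the test between the groups. On the contralateral side its level was 2511, 2841, 3307, 3401 and 3655 CPM in the PTE+ libraries and 2797, 3277, 4221, 4725 and 4995 CPM in the sham libraries. The 10 contralateral PTE- libraries lay between 2064 and 4675 CPM, with a median of 3681 CPM. PTE+ mouse a9_17 lay below every sham library, the other PTE+ libraries lay in the lower part of the sham range, and all 3 groups overlapped. The group means were 3143 ± 460 CPM in PTE+ (SD, n = 5), 3646 ± 795 CPM in PTE- (SD, n = 10) and 4003 ± 940 CPM in sham mice (SD, n = 5). The log2 fold change of PTE+ versus sham was -0.35 (SE 0.20; edgeR p = 0.0952, adjusted p = 1.0; exact permutation p = 0.143). PTE+ and PTE- mice differed by -0.22 (SE 0.17; edgeR p = 0.225), and PTE- and sham mice by -0.13 (SE 0.17; edgeR p = 0.455). Leaving out single libraries gave PTE+ versus sham values from -0.45 (without sham mouse a9_10; edgeR p = 0.0350, the only 1 of 10 fits below 0.05) to -0.26 (without sham mouse a8_16), and PTE- versus sham values from -0.23 to -0.04 without the same mice. The value of PTE+ versus PTE- was -0.077 with the detected genes per library as a covariate and -0.051 on the log2(TPM + 1) scale.

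On the ipsilateral side, Gja1 was at 2779, 3284, 3747 and 4323 CPM in the PTE+ libraries and at 2007, 3450, 3702, 5387 and 6881 CPM in the sham libraries. The 8 PTE- libraries lay between 2037 and 5024 CPM, with a median of 3333 CPM. The sham libraries spanned the values of both injured groups, and their coefficient of variation was 43.9% as against 18.6% in PTE+ and 28.1% in PTE- libraries. The log2 fold changes were 0.09 (SE 0.27; edgeR p = 0.752) for PTE+ versus PTE-, -0.28 (SE 0.29; edgeR p = 0.354) for PTE+ versus sham and -0.36 (SE 0.25; edgeR p = 0.156) for PTE- versus sham. When single libraries were left out, the last value ranged from -0.54 without sham mouse a9_10 (edgeR p = 0.0250, the only 1 of 13 fits below 0.05) to -0.13 without sham mouse a9_9 (edgeR p = 0.612). The same mice moved PTE+ versus sham to -0.46 and -0.040, and PTE+ versus PTE- was -0.027 when PTE+ mouse a9_19 was left out and 0.19 when PTE- mouse a9_15 was.

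Gjb6, the second connexin of the astrocyte network, had its lowest group mean in contralateral PTE+ astrocytes. The PTE+ libraries were at 576, 629, 652, 653 and 1100.5 CPM, and the sham libraries at 756, 900, 930.0, 1044 and 1299 CPM. The 10 PTE- libraries lay between 496 and 1326 CPM, with a median of 1013 CPM. In 4 of 5 PTE+ mice Gjb6 was below every sham library, while PTE+ mouse a8_17 lay within the range of both other groups and PTE- mouse a9_20 below all PTE+ libraries. The means were 722 ± 214 CPM in PTE+ (SD, n = 5), 1002 ± 248 CPM in PTE- (SD, n = 10) and 986 ± 203 CPM in sham mice (SD, n = 5). PTE+ versus PTE- gave a log2 fold change of -0.47 (SE 0.20; edgeR p = 0.0287, adjusted p = 1.0; p = 0.0559 by exact permutation), where 1.33% of all genes were lower with an unadjusted p-value below 0.05. PTE+ versus sham gave -0.45 (SE 0.23; edgeR p = 0.0631; exact permutation p = 0.0794), and PTE- versus sham 0.02 (SE 0.20; edgeR p = 0.902). Leaving out single libraries moved PTE+ versus sham between -0.65 (without PTE+ mouse a8_17; edgeR p = 0.0091) and -0.33 (without sham mouse a8_16; edgeR p = 0.176), with 2 of 10 fits below an unadjusted p of 0.05.

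Of the 6 comparisons within a hemisphere, only PTE+ versus PTE- on the contralateral side met the 3 criteria of the study's methods (an unadjusted p-value below 0.05, at least a 1.2-fold change and a mean above 5 TPM in one of the groups), here with the p-value of edgeR in place of the DESeq2 test that the study used. With edgeR these criteria were met by 1.26% of the 14642 genes tested, and by 0.922% in the downward direction. When single libraries were left out, 9 of 15 fits had an unadjusted edgeR p-value below 0.05, and the log2 fold change ran from -0.67 without PTE+ mouse a8_17 (edgeR p = 0.0034) to -0.41 without PTE+ mouse a9_17 (edgeR p = 0.0798). The p-value was above 0.05 in 6 fits, those that left out one of the PTE+ mice a8_10, a9_17, a9_18 and a9_19 or the PTE- mice a8_11 and a8_13. On the log2(TPM + 1) scale, where the median of all genes was shifted by 0.28, the log2 fold change was -0.31 (limma p = 0.138). The summed neuron markers were at 113 to 1373 TPM (median 484) in the contralateral PTE+ libraries and at 110 to 372 TPM (median 164) in the PTE- libraries, and the endothelial markers at 828 to 5666 TPM (median 2017) and 413 to 2108 TPM (median 1144). Their part in the Gjb6 difference was not tested. The mouse names begin with a8 or a9, a prefix whose meaning the labels do not state. The difference in log2(CPM + 1) between PTE+ and PTE- mice was -0.40 among 2 and 4 mice named a8 (exact permutation p = 0.267) and -0.51 among 3 and 6 mice named a9 (exact permutation p = 0.119).

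On the ipsilateral side, Gjb6 was at 634, 835, 881 and 1060 CPM in the PTE+ libraries and at 409, 928, 1112, 1176 and 1371 CPM in the sham libraries. The 8 PTE- libraries lay between 429 and 917 CPM, with a median of 787 CPM. Here the PTE+ libraries were not the lowest, and the lowest value came from sham mouse a9_10. The log2 fold change was 0.19 (SE 0.27; edgeR p = 0.488) for PTE+ versus PTE-, -0.23 (SE 0.30; edgeR p = 0.448) for PTE+ versus sham and -0.42 (SE 0.25; edgeR p = 0.109) for PTE- versus sham. When single libraries were left out, the last value ranged from -0.62 without sham mouse a9_10 (edgeR p = 0.0082, the only 1 of 13 fits below 0.05) to -0.28 without sham mouse a8_15 (edgeR p = 0.305). It was -0.29 without PTE- mouse a8_11. The value of PTE+ versus sham ranged from -0.43 to -0.050 without the same sham mice, and it was 0.10 on the log2(TPM + 1) scale and 0.29 in log2(CPM + 1) among the mice named a9. PTE+ versus PTE- was 0.066 when PTE+ mouse a9_19 was left out and 0.31 when PTE+ mouse a8_10 was. In log2(CPM + 1), PTE- and sham mice differed by -0.94 among 3 and 2 mice named a8 (exact permutation p = 0.2, the smallest possible 0.1) and by 0.04 among 5 and 3 mice named a9 (exact permutation p = 0.929).

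**Figure D2:**
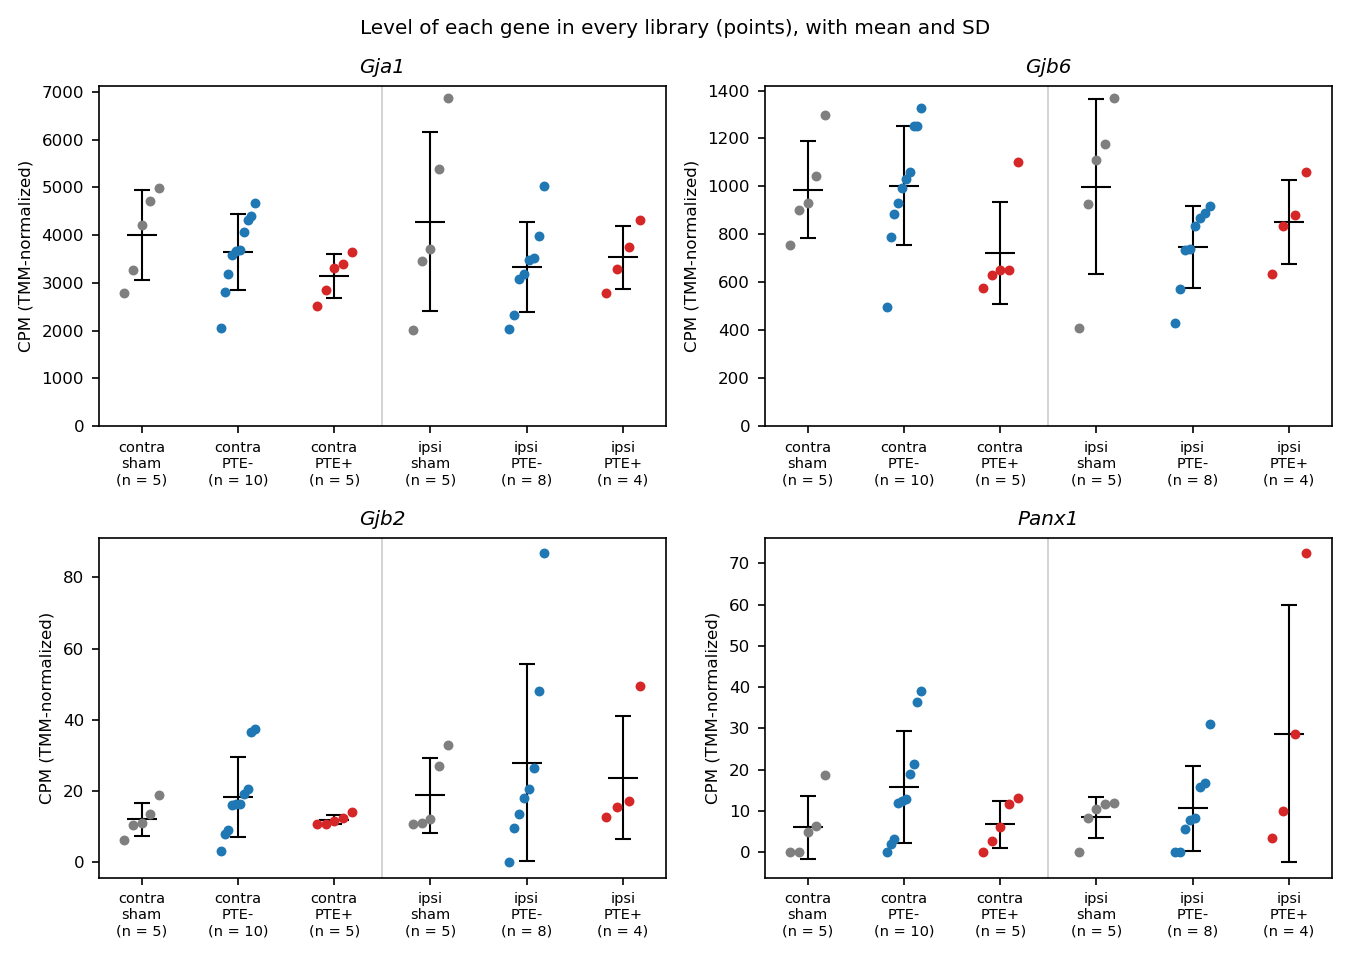
Each panel plots the TMM-normalized CPM of 1 gene (linear axis) in every library (points) of the 6 groups, with the group mean and SD (bars). Contralateral Gjb6 lies between 576 and 653 CPM in 4 of 5 PTE+ libraries, and the Gjb2 and Panx1 values are low and scattered in every group.

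The second question was whether the injured side differed from the other side of the same mouse. These comparisons used the 17 mice with both libraries and kept the mouse as a block, so that the difference between hemispheres was taken within each animal. In PTE- mice Gjb6 was lower on the ipsilateral side in 6 of 8 mice, with within-mouse differences of log2(CPM + 1) between -1.54 and 0.17 and a median of -0.50. The largest difference belonged to mouse a8_11, with 1251 CPM contralaterally and 429 CPM ipsilaterally, whose ipsilateral library had the fewest detected genes and the lowest astrocyte marker sum of all. The median summed markers of contralateral (n = 10) and ipsilateral (n = 8) PTE- libraries were 16117 and 13723 TPM for astrocytes, 164 and 353 TPM for neurons and 1144 and 452 TPM for endothelial cells. The part of these markers in the side difference was not tested. The paired log2 fold change was -0.47 (SE 0.17; edgeR p = 0.0137, adjusted p = 1.0; exact sign-flip permutation p = 0.0391). Without mouse a8_11 it was -0.31 (edgeR p = 0.0552), and without the block of the mouse -0.45 (edgeR p = 0.0172). In this comparison 1.04% of the 15731 genes tested were lower with an unadjusted p-value below 0.05.

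In PTE+ mice the order was the opposite, and Gjb6 was higher on the ipsilateral side in 3 of 4 mice. Mouse a9_17 went from 576 to 835 CPM, mouse a9_18 from 629 to 881 CPM and mouse a9_19 from 653 to 1060 CPM. Mouse a8_10 had near equal levels, at 652 CPM contralaterally and 634 CPM ipsilaterally. The paired log2 fold change was 0.42 (SE 0.24; edgeR p = 0.0999), and the exact sign-flip permutation test gave p = 0.25, where 4 mice allow no p-value below 0.125. In sham mice Gjb6 was higher ipsilaterally in 3 of 5 mice, with a paired log2 fold change of -0.06 (SE 0.22; edgeR p = 0.770) that was 0.02 without the block.

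The side difference of Gjb6 was then compared between the injured groups, since a p-value in one group and not in the other does not show that they differ. The mean within-mouse difference of log2(CPM + 1), ipsilateral minus contralateral, was 0.42 ± 0.32 in PTE+ (SD, n = 4) and -0.48 ± 0.53 in PTE- mice (SD, n = 8). In PTE+ mice it ran from -0.04 to 0.70 and in PTE- mice from -1.54 to 0.17, so that the groups overlapped only between -0.04 and 0.17. The edgeR interaction was 0.89 (SE 0.30; p = 0.0078, adjusted p = 1.0), and permuting the group labels gave an exact p = 0.0141. An unadjusted edgeR p-value below 0.05 in the upward direction was reached by 0.381% of the 15731 genes. Leaving out each mouse in turn gave values between 0.76 and 1.02, with edgeR p-values from 0.0036 to 0.0290, and leaving out the block gave 0.90 (edgeR p = 0.0073). All these fits hold only mice with both libraries, so none can show the effect of mice a8_17, a8_13 and a9_20. The contralateral libraries nearest to the other group were thus absent, PTE+ mouse a8_17 (1100.5 CPM, the highest PTE+) and PTE- mouse a9_20 (496 CPM, the lowest PTE-). Mouse a8_13, also absent, was the highest contralateral PTE- library (1326 CPM). Among the mice named a9 the difference was 0.93 (exact permutation p = 0.0179, the smallest that 3 and 5 mice allow). Only 1 PTE+ mouse with both libraries had the prefix a8, so no value was taken there. The side difference of injured versus sham mice was -0.11 (SE 0.26; edgeR p = 0.676).

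Gja1 did not show a side difference by the test. It was higher ipsilaterally in 3 of 4 PTE+ mice, 2 of 8 PTE- mice and 3 of 5 sham mice. The paired log2 fold changes were 0.19 (SE 0.22; edgeR p = 0.379), -0.06 (SE 0.15; edgeR p = 0.718) and 0.01 (SE 0.20; edgeR p = 0.956). The same 3 PTE+ mice, a9_17, a9_18 and a9_19, had the higher ipsilateral value for Gja1 and for Gjb6. The difference between PTE+ and PTE- mice in this side difference was 0.25 (SE 0.27; edgeR p = 0.356; exact permutation p = 0.416), and ranged from 0.099 without PTE- mouse a9_16 to 0.38 without PTE- mouse a9_15. The 0.89 of Gjb6 and the 0.25 of Gja1 were not compared with each other by a test on counts.

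**Figure D3:**
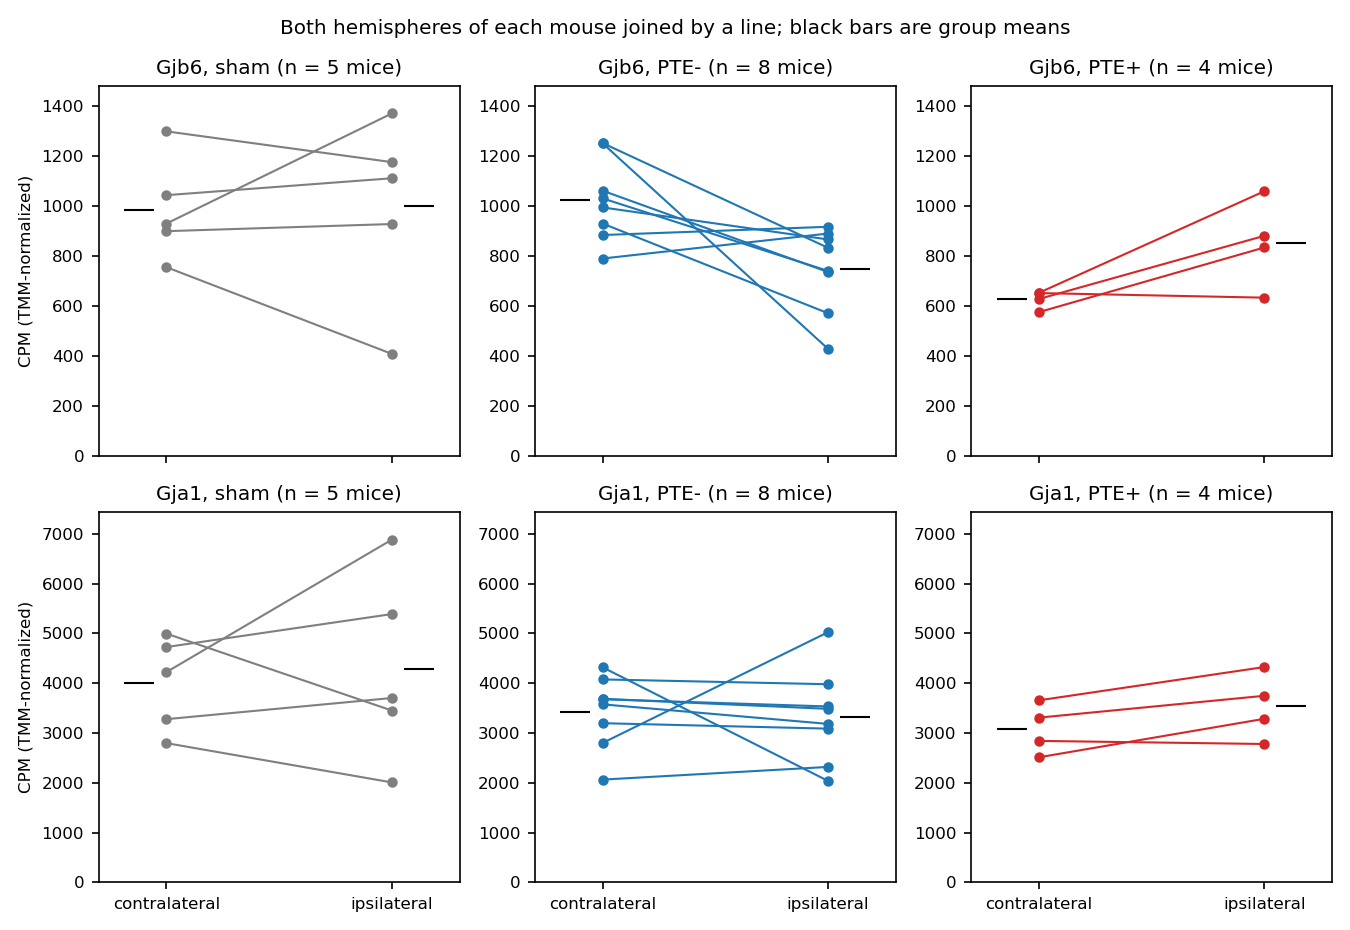
Lines join the contralateral and ipsilateral CPM (TMM-normalized, linear axis) of each mouse for Gjb6 (upper row) and Gja1 (lower row), with black bars at the group means. The Gjb6 lines run downward in 6 of 8 PTE- mice and upward in 3 of 4 PTE+ mice.

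Averaged over both hemispheres of a mouse, Gjb6 differed by -0.24 on the log2(CPM + 1) scale between 4 PTE+ and 8 PTE- mice (exact permutation p = 0.0424, adjusted p = 1.0). By the same test 3.46% of the 15731 genes had a p-value below 0.05, and 0.947% had one in the downward direction, with 0 after adjustment, and on the log2(TPM + 1) scale the Gjb6 difference was 0.00 (exact permutation p = 0.996). Injured and sham mice differed by -0.22 for Gjb6 (exact permutation p = 0.168) and by -0.26 for Gja1 (exact permutation p = 0.152), in 12 and 5 mice, where 2.74% of all genes had a p-value below 0.05 and 0 passed adjustment. The Gjb6 value was -0.59 within the mice named a8 and 0.01 within those named a9. Leaving out sham mouse a9_10, which was the lowest sham mouse for both genes on both sides, moved the Gjb6 and Gja1 values to -0.42 and -0.44. Over 17 fits that each left out 1 mouse, the exact permutation p-value ran from 0.0033 to 0.432 for Gjb6. For Gja1 it ran from 0.0099 to 0.423, and 1 of 17 fits was below 0.05 for each gene. The Gja1 mean of PTE+ and PTE- mice differed by -0.01 (exact permutation p = 0.960).

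The balance between both connexins was taken as the ratio of Gjb6 to Gja1 TPM, in which the total of a library cancels. The scaling for transcript length in TPM does not cancel, and it varied between libraries. The ratio was 0.348, 0.369, 0.478, 0.525 and 0.619 in contralateral PTE+ libraries and 0.406, 0.509, 0.513, 0.536 and 0.537 in contralateral sham libraries. It was between 0.214 and 1.14 in PTE- libraries, with a median of 0.562. The PTE- libraries held both extremes, mouse a9_20 with the lowest ratio and mouse a8_11 with the highest, the only library with more Gjb6 than Gja1 by TPM. By CPM, without the scaling for transcript length, Gja1 was the higher in that library (2064 CPM, beside 1251 CPM for Gjb6). The log2 ratio of PTE+ and PTE- mice differed by -0.26 (exact permutation p = 0.387), that of PTE+ and sham mice by -0.12 (exact permutation p = 0.508) and that of PTE- and sham mice by 0.14 (exact permutation p = 0.533).

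Ipsilaterally the ratio was 0.438, 0.464, 0.514 and 0.545 in PTE+ libraries and 0.293, 0.351, 0.423, 0.716 and 0.788 in sham libraries, and 0.275 to 0.756 in PTE- libraries. The PTE+ ratios lay within the ranges of both other groups. The 3 group differences had exact permutation p-values of 0.511 (PTE+ versus PTE-), 0.897 (PTE+ versus sham) and 0.681 (PTE- versus sham). Within mice, the ipsilateral log2 ratio was lower by a mean difference of -0.49 in PTE- mice (exact sign-flip permutation p = 0.0781) and differed by 0.20 in PTE+ mice (exact p = 0.375). The side difference of the ratio between PTE+ and PTE- mice was 0.70 (exact permutation p = 0.101), and 0.48 without mouse a8_11.

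Gjb2 was low and varied widely between libraries. In contralateral astrocytes it was at 10.8, 10.8, 11.7, 12.3 and 14.1 CPM in PTE+ mice, and at 6.24, 10.5, 11.1, 13.4 and 18.9 CPM in sham mice. The contralateral PTE- libraries lay between 3.25 and 37.4 CPM, with a median of 16.3 CPM. The PTE+ values were the closest together of any group, with a coefficient of variation of 11.4% as against 61.6% in PTE- mice, and they fell within the ranges of the other groups. The log2 fold change of PTE+ versus PTE- was -0.61 (SE 0.62; edgeR p = 0.336).

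Ipsilateral Gjb2 was at 12.7, 15.6, 17.2 and 49.4 CPM in PTE+ mice, 10.7, 11.1, 12.1, 26.9 and 33.0 CPM in sham mice and 0 to 86.9 CPM in PTE- mice (median 19.4). The highest library was that of PTE- mouse a9_16, and the ipsilateral library of PTE- mouse a8_14 had no Gjb2 count. Mouse a9_16 also had the highest summed level of mural and fibroblast markers on the ipsilateral side (2151 TPM, where the median of ipsilateral PTE- libraries was 613 TPM), and the part of such cells in its Gjb2 level was not tested. The lowest edgeR p-value of the 11 Gjb2 comparisons was 0.336, and the SE of the log2 fold changes ran from 0.62 to 1.63.

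Panx1 was the least regularly detected of the 4 genes. Contralaterally it was at 0, 2.75, 6.12, 11.7 and 13.1 CPM in PTE+ mice, 0, 0, 5.01, 6.39 and 18.7 CPM in sham mice and 0 to 39.0 CPM in PTE- mice (median 12.6). Ipsilaterally it was at 3.50, 10.1, 28.7 and 72.5 CPM in PTE+ mice, 0, 8.32, 10.4, 11.6 and 11.9 CPM in sham mice and 0 to 30.9 CPM in PTE- mice (median 8.03). In 7 libraries it had no count, which at their depth allows a level of up to 0.0501 to 0.0737 CPM (3 counts, counting error only). Zeros occurred in 5 of the 6 groups, the exception being ipsilateral PTE+ mice, and libraries of the same group held up to 39.0 CPM. The ipsilateral libraries with no count, of mice a8_11, a9_9 and a8_14, had the fewest detected genes of that side (9020, 10886 and 11271). Contralaterally the fewest were in mice a9_20 and a9_14 (11756 and 11855), where Panx1 was counted. The part of detection in these zeros was not tested.

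The highest Panx1 value, 72.5 CPM, belonged to ipsilateral PTE+ mouse a9_19. The log2 fold change of PTE+ versus PTE- was -1.26 contralaterally (SE 1.56; edgeR p = 0.427) and 1.43 ipsilaterally (SE 1.51; edgeR p = 0.355), where it was 0.40 without mouse a9_19. Panx1 was higher on the ipsilateral side in 3 of 4 PTE+ mice, 3 of 8 PTE- mice and 3 of 5 sham mice. The side difference between PTE+ and PTE- mice was 3.60 with an SE of 3.45 (edgeR p = 0.312; exact permutation p = 0.117). No difference in Panx1 was detectable beyond this error.

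**Figure D4:**
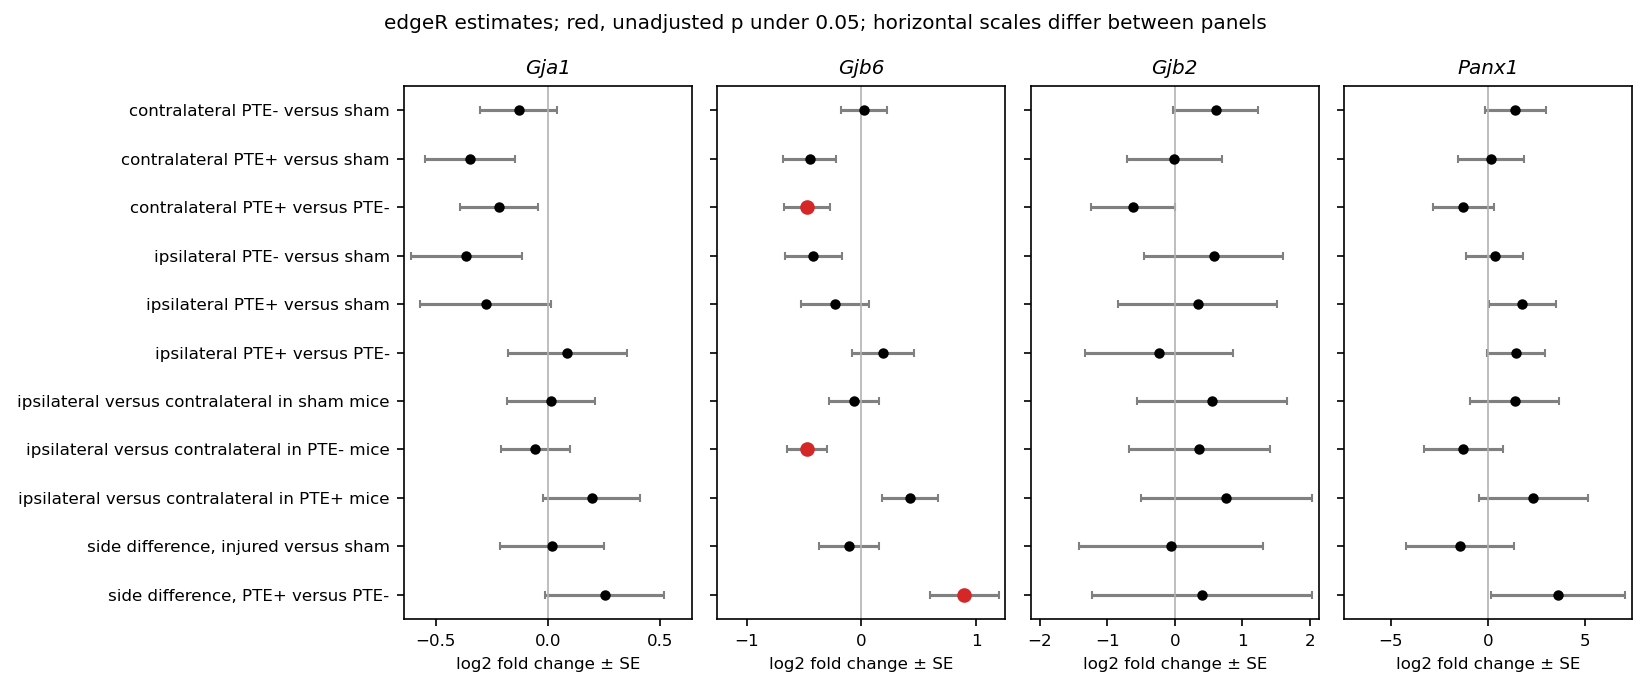
Points are edgeR log2 fold changes for 11 comparisons of each gene, and bars their SE, derived from the F statistic. Points are red where the unadjusted p-value was below 0.05, and each panel has a different horizontal scale. The 3 red points are all of Gjb6 (-0.47, -0.47 and 0.89) and come from tests that share libraries. The bars of Gjb2 and Panx1 are several times wider than those of Gja1 and Gjb6.

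Ordered by their mean CPM over the 6 groups, neighbouring groups differed by less than the larger SD of the pair for all 4 genes. Gja1 was highest in sham mice, with 4286 ± 1883 CPM ipsilaterally (SD, n = 5) and 4003 ± 940 CPM contralaterally (SD, n = 5), and lowest in contralateral PTE+ mice. Gjb6 was highest in contralateral PTE- mice (1002 ± 248 CPM, SD, n = 10), followed by ipsilateral and contralateral sham mice, then by ipsilateral PTE+, ipsilateral PTE- and contralateral PTE+ mice. Panx1 was highest in ipsilateral PTE+ mice, at 28.7 ± 31.1 CPM (SD, n = 4), an SD larger than the mean.

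The genes around these channels were described by a list of 57 other connexins, pannexins, binding and trafficking proteins, kinases and turnover enzymes, ATP receptors and ectonucleotidases, and partners in potassium buffering. Of these, 42 were tested on the contralateral side and 44 on the ipsilateral side, and none passed the adjusted edgeR test in any comparison. DESeq2 and limma voom also gave 0 adjusted calls on this list, and 1 edgeR test of 478 had an unadjusted p-value below 0.05. This number depended on the setting: within the hemispheres it was 24 of 315 tests with no filter on low counts, 8 of 258 with limma voom and 4 of 258 with DESeq2, and between them 17 of 220 with limma voom and the block. The shares of all genes under these other settings are not given here, so these counts are not a result about the list. The 1 listed gene below 0.05 in the main fits was Ctnnb1, which encodes β-catenin, a protein of cell adhesion that binds connexin 43. In contralateral PTE+ libraries Ctnnb1 was at 388 to 643 CPM with a median of 539 CPM, and in PTE- libraries at 222 to 508 CPM with a median of 312 CPM. Its log2 fold change was 0.57 (SE 0.23; edgeR p = 0.0228, adjusted p = 1.0), with overlapping groups.

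For PTE+ versus PTE- mice on the contralateral side, 23 of the 42 genes were higher and 19 lower, with a median log2 fold change of 0.02 beside -0.05 over all genes tested. On the ipsilateral side 30 of 44 were higher, with a median of 0.14 beside -0.01. For PTE- versus sham mice on the ipsilateral side 27 of 44 were lower, with a median of -0.22 beside 0.02.

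Tjp1, which encodes the scaffold ZO-1 that binds connexin 43, did not differ by the test, with a log2 fold change of PTE+ versus PTE- of -0.08 (SE 0.47; edgeR p = 0.868) contralaterally and 0.62 (SE 0.93; edgeR p = 0.513) ipsilaterally. Gjc3, the myelin-cell connexin above 3 counts in every library, gave 0.32 (SE 0.92; edgeR p = 0.734) and 0.34 (SE 1.06; edgeR p = 0.753). Gjb1 gave 1.72 (SE 1.97; edgeR p = 0.393) contralaterally and -1.65 (SE 2.65; edgeR p = 0.540). Ipsilateral Panx2 was at 0.09 to 21.6 CPM in PTE+ mice and 0 to 2.73 CPM in PTE- mice (log2 fold change 3.58, SE 1.79; edgeR p = 0.0598).

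To describe which genes varied with each channel, log2(CPM + 1) values were centred on the mean of their group and hemisphere and correlated over 37 libraries. The genes most like Gja1, of 12486 with a median of at least 1 CPM, were Acsl3 (Pearson's r = 0.84), Atp1b2 (0.77), Plpp3 (0.76), Htra1 (0.73) and S1pr1 (0.72). Those most like Gjb6 were Ntsr2 (0.75), Lsamp (0.74), Abhd3 (0.73), F3 (0.73) and Tlcd1 (0.72). Their median levels lay between 323 and 4551 TPM. Ntsr2 encodes a neurotensin receptor and F3 encodes tissue factor.

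The genes most like Gjb2 were Slc6a13 (r = 0.79), a GABA transporter of meningeal and perivascular fibroblasts that is on the fibroblast marker list, Nbl1 (0.76), Eml2 (0.75), Adcy3 (0.75) and Fbxw11 (0.74). Those most like Panx1 were Tgtp2 (0.75), Zfp12 (0.73), Rab3il1 (0.71), Znrf2 (0.69) and Uhrf1bp1 (0.69), with medians of 1.92 to 28.6 TPM. Gja1 and Gjb6 themselves had r = 0.45 over 37 libraries (Spearman's rho = 0.44; r = 0.40 without the 2 libraries farthest from the median Gja1), which was 0.14 over the 20 contralateral libraries and 0.65 over the 17 ipsilateral ones. Spearman's rho was 0.39 contralaterally and 0.40 ipsilaterally, and r without the 2 farthest libraries was 0.29 and 0.44. A difference between the hemispheres in this correlation was not tested. Over 37 libraries the neighbours Gjb6 and Gjb2 had r = 0.16, and Gja1 and Panx1 r = -0.27. The points of each correlation share their library and its depth.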

How the data were processed

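The authors trimmed the paired-end reads of SMART-Seq V4 libraries with Trim Galore 0.6.4 and quantified genes with RSEM 1.2.28 and Bowtie2 2.4.1 on mm10, per the methods and the submitters' processing notes. The annotation release is not given in the sources used here. The deposited gene counts are whole numbers without normalization, and the deposited TPM values are scaled for transcript length and library by the authors. Neither file pools libraries. The 4 genes and all lists were chosen with earlier results of these data known.

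Counts were fitted with edgeR 4.0.16 (R 4.3.3; filterByExpr, TMM, quasi-likelihood F test), on the 3 groups of each hemisphere separately and, for side comparisons, on the 17 mice with both libraries with the mouse as a block. Same-named libraries are from the same animal. Their deviations from the group means correlated with a median r of 0.0714 (7 of 17 pairs over 0.1), beside -0.0193 for different mice of a group. P-values were adjusted by Benjamini-Hochberg over all genes tested, 14642, 14903 and 15731. The SE given with edgeR values is not an output of its test. It was derived as the absolute log2 fold change divided by the square root of F. Exact permutation tests used log2(CPM + 1), two-sided, in Python 3.11.15. DESeq2 1.42.0, limma 3.58.1 voom, log2(TPM + 1), other pseudocounts, filters, scalings and leaving out each library were the alternatives, and the tests were checked on simulated data. The simulated counts had a smaller spread than the common estimate of the real fits, and large planted changes. That check does not show how often smaller changes would be found in the real counts. Genes named were the 4 genes, the fixed names Tjp1, Gjc3, Gjb1 and Panx2, listed genes with an unadjusted p-value below 0.05, and the 5 genes most like each of the 4. Promoters are RefSeq sequences. Some genes of the lists are not reported here.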

Additional observations from a re-analysis of the deposited data

Results flagged for a closer look

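Of 30 groups of values checked, 6 held a library whose gap to its nearest neighbour was large for the range of its group, where chance gives about 1 in 20. For Gjb6 these were contralateral PTE+ mouse a8_17, the highest of its group at 10.11 log2(CPM + 1), and contralateral PTE- mouse a9_20, the lowest at 8.96. Mouse a9_20 was also lowest for the log2 ratio of Gjb6 to Gja1, at -2.23, and its library had the lowest total count. Contralateral sham mouse a9_11 had the lowest log2 ratio of its group, at -1.30. Gjb2 was at 0 log2(CPM + 1) in ipsilateral PTE- mouse a8_14 and Panx1 at 0 in ipsilateral sham mouse a9_9.

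The side difference of Gjb6 differed between PTE+ and PTE- mice by 0.90 in log2(CPM + 1) by permutation of the group labels (exact p = 0.0141), and did not pass adjustment over all genes (adjusted p = 1.0). Gjb6 was higher ipsilaterally in 3 of 4 PTE+ mice and in 2 of 8 PTE- mice.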

How the results depend on the processing

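No alternative gave an adjusted call for any of the 4 genes. Values that turned direction and numbers of calls that moved follow, with the means over both hemispheres and the ratios that crossed a p-value of 0.05, as log2 differences or, for all genes, numbers of adjusted calls, and their cause was not tested. On the log2(TPM + 1) scale the median of all genes moved by up to 0.28. The side difference of Gjb6 between PTE+ and PTE- mice kept its direction under each alternative run, and the block changed no call of the 4 genes. The prefix a8 held 1 PTE+ mouse with both sides and gave no value for comparisons that need more. Gjb2 and Panx1 had no count in 1 and 7 libraries, all of them deeper than the shallowest library, in which both were counted. Those on the ipsilateral side were, however, the libraries with the fewest detected genes of that side.

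With DESeq2, Gjb2 gave 0.014 (contralateral PTE+ versus sham). The number of genes called was 23 (contralateral PTE+ versus PTE-), 31 (contralateral PTE+ versus sham), 26 (contralateral PTE- versus sham), 63 (ipsilateral PTE+ versus PTE-), 63 (ipsilateral PTE+ versus sham), 19 (ipsilateral PTE- versus sham) under the same setting. With RLE size factors, Gjb2 gave 0.014 (contralateral PTE+ versus sham). With RLE size factors, with the replicate block, Gja1 gave 0.026 (between sides of PTE- mice), -0.0029 (between sides of sham mice). Gjb2 gave 0.018 (side difference of injured versus sham) under the same setting. With limma on log2(TPM + 1), Gja1 gave 0.069 (ipsilateral PTE+ versus sham). Gjb2 gave 0.0604 (contralateral PTE+ versus sham), 0.40 (ipsilateral PTE+ versus PTE-) under the same setting. Gjb6 gave -0.13 (contralateral PTE- versus sham), 0.10 (ipsilateral PTE+ versus sham) under the same setting. The number of genes called was 0 (contralateral PTE+ versus PTE-) under the same setting. With limma on log2(TPM + 1), with the replicate block, Gja1 gave 0.057 (between sides of PTE- mice), -0.12 (between sides of sham mice). Gjb2 gave 0.14 (side difference of injured versus sham) under the same setting. Gjb6 gave 0.032 (side difference of injured versus sham) under the same setting. With limma voom with quality weights, Gja1 gave 0.0073 (contralateral PTE- versus sham), -0.10 (ipsilateral PTE+ versus PTE-). Gjb2 gave 0.032 (contralateral PTE+ versus sham) under the same setting. Gjb6 gave -0.018 (ipsilateral PTE+ versus PTE-) under the same setting. Panx1 gave -0.082 (ipsilateral PTE- versus sham) under the same setting. The number of genes called was 0 (contralateral PTE+ versus PTE-), 2 (ipsilateral PTE- versus sham) under the same setting. With limma voom with quality weights, with the replicate block, Gja1 gave -0.11 (side difference of injured versus sham). Gjb2 gave -0.30 (side difference of PTE+ versus PTE-), 0.67 (side difference of injured versus sham) under the same setting. Gjb6 gave 0.13 (between sides of sham mice) under the same setting. Panx1 gave 0.22 (between sides of PTE- mice), 0.12 (side difference of injured versus sham) under the same setting. The number of genes called was 10 (between sides of PTE+ mice), 2 (between sides of PTE- mice), 5 (between sides of sham mice), 2 (side difference of PTE+ versus PTE-) under the same setting. Without the replicate block, Gja1 gave -0.059 (side difference of injured versus sham). Gjb2 gave 0.24 (side difference of injured versus sham) under the same setting. Gjb6 gave 0.019 (between sides of sham mice) under the same setting. With name prefix as a covariate, the number of genes called was 0 (contralateral PTE+ versus PTE-). With number of detected genes as a covariate, Gjb2 gave 0.0061 (contralateral PTE+ versus sham). The number of genes called was 0 (contralateral PTE+ versus PTE-) under the same setting. In permutation tests on log2(TPM + 1), Gja1 gave 0.069 (ipsilateral PTE+ versus sham), 0.057 (between sides of PTE- mice), -0.12 (between sides of sham mice), 0.19 (mean of both sides, PTE+ versus PTE-). Gjb2 gave 0.084 (ipsilateral PTE- versus sham), 0.14 (side difference of injured versus sham) under the same setting. Gjb6 gave 0.10 (ipsilateral PTE+ versus sham), 0.0017 (mean of both sides, PTE+ versus PTE-), 0.032 (side difference of injured versus sham) under the same setting. Panx1 gave 0.098 (ipsilateral PTE- versus sham), 0.10 (mean of both sides, PTE+ versus PTE-) under the same setting. With a pseudocount of 0.1, Gjb2 gave -0.071 (between sides of PTE- mice), -0.023 (mean of both sides, injured versus sham). With a pseudocount of 10, Gjb2 gave 0.17 (ipsilateral PTE- versus sham), -0.068 (mean of both sides, PTE+ versus PTE-), 0.067 (side difference of injured versus sham). Panx1 gave 0.067 (ipsilateral PTE- versus sham), 0.022 (mean of both sides, PTE+ versus PTE-) under the same setting. Within the mice named a8, Gja1 gave 0.012 (between sides of PTE- mice), -0.18 (between sides of sham mice). Gjb2 gave -0.91 (between sides of PTE- mice), -0.12 (between sides of sham mice), -0.28 (mean of both sides, injured versus sham) under the same setting. Gjb6 gave 0.024 (contralateral PTE- versus sham), 0.21 (between sides of sham mice) under the same setting. Within the mice named a9, Gja1 gave -0.10 (side difference of injured versus sham). Gjb2 gave -0.29 (ipsilateral PTE+ versus PTE-), 0.39 (ipsilateral PTE- versus sham), -0.31 (mean of both sides, PTE+ versus PTE-), 0.063 (side difference of injured versus sham) under the same setting. Gjb6 gave 0.29 (ipsilateral PTE+ versus sham), 0.039 (ipsilateral PTE- versus sham), -0.21 (mean of both sides, PTE+ versus PTE-), 0.015 (mean of both sides, injured versus sham), 0.24 (side difference of injured versus sham) under the same setting. Panx1 gave -0.39 (contralateral PTE+ versus sham), 1.26 (ipsilateral PTE- versus sham), 0.23 (between sides of PTE- mice), 1.15 (side difference of injured versus sham) under the same setting.

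Leaving out each library or mouse in turn, Gja1 ranged from -0.027 to 0.19 (ipsilateral PTE+ versus PTE-), from -0.18 to 0.095 (between sides of PTE- mice), from -0.16 to 0.15 (between sides of sham mice), from -0.12 to 0.19 (side difference of injured versus sham), from -0.10 to 0.062 (mean of both sides, PTE+ versus PTE-), from -0.44 to -0.15 (mean of both sides, injured versus sham). Leaving out each library or mouse in turn, Gjb6 ranged from -0.056 to 0.14 (contralateral PTE- versus sham), from -0.22 to 0.14 (between sides of sham mice), from -0.31 to 0.046 (side difference of injured versus sham), from -0.31 to -0.19 (mean of both sides, PTE+ versus PTE-), from -0.42 to -0.13 (mean of both sides, injured versus sham). Leaving out each library or mouse in turn, Gjb2 ranged from -0.17 to 0.21 (contralateral PTE+ versus sham), from -0.88 to 0.28 (ipsilateral PTE+ versus PTE-), from -0.30 to 0.64 (ipsilateral PTE+ versus sham), from -0.017 to 0.90 (between sides of PTE- mice), from -0.14 to 0.78 (side difference of PTE+ versus PTE-), from -0.29 to 0.29 (side difference of injured versus sham), from -0.26 to 0.27 (mean of both sides, PTE+ versus PTE-), from -0.047 to 0.32 (mean of both sides, injured versus sham). Leaving out each library or mouse in turn, Panx1 ranged from -0.22 to 1.23 (contralateral PTE+ versus sham), from -0.12 to 0.59 (ipsilateral PTE- versus sham), from -0.62 to 0.23 (mean of both sides, PTE+ versus PTE-). Leaving out each library or mouse in turn, the log2 ratio ranged from -0.14 to 0.22 (ipsilateral PTE+ versus sham), from -0.65 to -0.27 (between sides of PTE- mice), from 0.48 to 0.85 (side difference of PTE+ versus PTE-), from -0.30 to 0.055 (ipsilateral PTE- versus sham), from -0.22 to 0.12 (between sides of sham mice). Leaving out each library or mouse in turn, the number of genes called ranged from 0 to 1 (contralateral PTE+ versus PTE-).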
